A study of Mus musculus with 38 samples.

Results

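The 8 genes described here are annotated mouse pseudogenes, Tdpx-ps1, Gm15610, Gm6180, Gm13340, Gm13341, Rpl9-ps7, Pisd-ps1 and Pisd-ps2. They were chosen by the fold change and adjusted p between groups of these same mice, each passing an adjusted p of 0.1 in at least 1 comparison, so their levels and fold changes are given as a description, without a test. They were matched by Ensembl identifier to their symbols and are 8 of the 48709 genes counted, of which 10122 have a pseudogene biotype. The 7 genes they resemble most, called parent genes here, played no part in the choice, and for these the test is reported. Reads can match both a parent and its copy, so these tests are not fully independent of the choice.

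A pseudogene is a copy of a gene that is annotated as no longer coding for the working protein. A processed pseudogene arises when a messenger RNA is copied back into DNA and inserted elsewhere without its introns, while an unprocessed one arises when genomic DNA is duplicated. Pieces of mitochondrial DNA can also be inserted into a nuclear chromosome. Because a copy keeps most of the letters of its parent, a short sequencing read can match both, and its count depends on the differences that remain.

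RNA of the hippocampus, the brain region that forms spatial memories, was sequenced in 38 mice on a C57BL/6 background. The genotypes were wild-type (WT) and APPPS1ΔE9, a double transgenic model of amyloid deposition that carries mutated APP and presenilin 1 transgenes, and the chow held either placebo or anle138b, a diphenylpyrazole compound. At 6 months of age, the pre-plaque group, each of the 4 combinations of genotype and chow held 4 mice. At 10 months, the post-plaque group, there were 5 WT mice on placebo, 5 WT mice on anle138b, 5 APPPS1ΔE9 mice on placebo and 7 on anle138b. The genotype tag of the 4 placebo-treated WT libraries at 6 months names the transgenic genotype while their titles name WT, and the pseudogene Lamr1-ps1, above 0 in every APPPS1ΔE9 mouse, was at 0 in each of these 4. In this model both transgenes are driven by the mouse prion protein promoter, in placebo-treated as in anle138b-treated mice.

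Total counts were between 15847985 and 31895808 per mouse. Of the hippocampal neuron markers, 6 of 6 were above 0 in each of the 38 mice, with a sum between 6186 and 9221 CPM (the count of a gene scaled to the total count of the library). The summed choroid plexus markers ran from 31.6 to 7780 CPM, thalamus markers from 30.2 to 132 CPM and pituitary markers from 0.445 to 766 CPM. The choroid plexus sum varied widely within every group at 6 months. Its median was 6338 CPM (152 to 7375) in anle138b-treated and 433 CPM (59.3 to 6576) in placebo-treated APPPS1ΔE9 mice. In WT mice it was 5026 CPM (172 to 7541) on placebo and 6638 CPM (242 to 7780) on anle138b. The medians differed while the ranges overlapped. At 10 months the medians were 79.3 to 130 CPM. Markers of sex differed with genotype. Xist is read from the inactive X chromosome of females. Its medians in the WT groups, on placebo and on anle138b, were 1163 and 583 CPM at 6 months and 1231 and 1314 CPM at 10 months. In the 4 APPPS1ΔE9 groups the medians were 0.391 to 2.51 CPM. Some mice went the other way. The lowest mouse of each WT group was at 0.619 to 1.86 CPM, and the highest anle138b-treated APPPS1ΔE9 mouse at 10 months was at 1354 CPM. The paper gives all mice as male, which the Xist values of several mice do not match. With Y-linked expression as a covariate, the members past the threshold on anle138b in the genotype comparisons were 1 at 6 months and 3 at 10 months, where Gm13341 lost its call (adjusted p = 0.1, edgeR). The part of other tissue in the values below was not tested. In whole tissue, fewer cells of a type and less RNA per cell cannot be told apart. Libraries of a group mostly shared a sequencing lane, and in the 3 comparisons through which the members were chosen the groups had no lane in common, so lane and group cannot be told apart there. The WT groups at 6 months shared lane 4. No member was past the threshold there, either in the fit of all mice or in a fit of that lane alone. A comparison without a call cannot show whether lane matters.

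The copies differ in how far they have moved from their parents. Below are stretches from 5 of them, each above the matching bases of its parent, with capitals at the bases that differ or are missing from the partner. They are shown because these letters are what separates a read of the copy from a read of the parent. Positions are counted from 1 at the 5′ end of the pseudogene, and coordinates are those of GRCm38, the build mm10. The bases shown start at position 1 in Tdpx-ps1 and Gm15610, 1145 in Gm13340, 422 in Gm13341 and 4 in Rpl9-ps7.
Tdpx-ps1: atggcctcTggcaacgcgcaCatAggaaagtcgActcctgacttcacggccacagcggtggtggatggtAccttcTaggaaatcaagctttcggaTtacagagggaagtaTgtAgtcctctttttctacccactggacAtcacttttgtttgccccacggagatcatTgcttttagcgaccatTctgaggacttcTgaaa
Prdx2: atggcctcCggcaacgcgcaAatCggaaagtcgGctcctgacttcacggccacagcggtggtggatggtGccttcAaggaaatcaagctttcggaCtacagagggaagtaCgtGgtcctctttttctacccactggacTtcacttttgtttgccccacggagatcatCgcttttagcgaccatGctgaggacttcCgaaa
Gm15610: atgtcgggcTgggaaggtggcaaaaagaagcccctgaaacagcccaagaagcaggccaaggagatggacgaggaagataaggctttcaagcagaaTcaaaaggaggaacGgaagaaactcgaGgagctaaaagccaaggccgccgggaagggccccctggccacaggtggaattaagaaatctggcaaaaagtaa
Tma7: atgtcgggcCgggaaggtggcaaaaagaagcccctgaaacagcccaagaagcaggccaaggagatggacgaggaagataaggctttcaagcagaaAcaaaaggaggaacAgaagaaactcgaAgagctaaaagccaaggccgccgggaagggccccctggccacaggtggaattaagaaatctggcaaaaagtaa
Gm13340: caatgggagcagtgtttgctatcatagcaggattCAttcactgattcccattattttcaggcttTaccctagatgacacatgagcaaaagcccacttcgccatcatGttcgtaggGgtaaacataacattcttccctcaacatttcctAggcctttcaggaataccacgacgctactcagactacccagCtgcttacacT
mt-Co1: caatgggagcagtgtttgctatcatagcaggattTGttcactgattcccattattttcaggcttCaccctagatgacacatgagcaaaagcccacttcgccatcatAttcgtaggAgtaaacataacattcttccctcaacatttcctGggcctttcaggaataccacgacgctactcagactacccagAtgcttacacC
Gm13341: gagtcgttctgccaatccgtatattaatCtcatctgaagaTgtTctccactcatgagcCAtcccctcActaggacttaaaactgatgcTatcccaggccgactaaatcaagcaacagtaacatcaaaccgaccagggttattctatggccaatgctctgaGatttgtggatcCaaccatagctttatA
mt-Co2: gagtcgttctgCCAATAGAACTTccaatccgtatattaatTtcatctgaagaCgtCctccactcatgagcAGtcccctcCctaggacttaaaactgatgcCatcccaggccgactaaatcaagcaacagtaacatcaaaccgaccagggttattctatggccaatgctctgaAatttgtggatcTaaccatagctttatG
Rpl9-ps7: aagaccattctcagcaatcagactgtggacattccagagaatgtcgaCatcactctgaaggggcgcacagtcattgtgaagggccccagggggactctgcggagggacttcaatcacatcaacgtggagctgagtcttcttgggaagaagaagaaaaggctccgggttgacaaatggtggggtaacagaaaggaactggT
Rpl9: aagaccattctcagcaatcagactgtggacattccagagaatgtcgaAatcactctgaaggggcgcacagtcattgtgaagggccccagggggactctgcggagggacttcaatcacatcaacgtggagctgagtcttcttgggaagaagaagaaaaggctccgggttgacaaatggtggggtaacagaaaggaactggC

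Tdpx-ps1 is a processed pseudogene of 597 bases in 1 exon at chr1:99790429-99791025 on the minus strand, inside an intron of Cntnap5b, which is read from the other strand. Its 597 bases align to Prdx2, a peroxiredoxin that reduces peroxides, with 22 substitutions and 96.31% identity. Of 198 codons compared, 13 encode another amino acid or a stop, and 3 are stops that Prdx2 lacks, the first at codon 26 through the substitution A76T. Gm15610 is the shortest copy, 195 bases at chr5:8971948-8972142 on the plus strand, in an intron of Crot on the other strand. It differs from Tma7, a factor that associates with the translation machinery, at 4 bases (C10T, A96T, A110G and A123G), and its 64 codons hold no stop that Tma7 lacks. Gm6180, at chr8:42246911-42247408 on the plus strand, holds 6 substitutions in 498 bases (G105A, G186T, C241T, C333T, G437A and C471G) against Cfl1, which encodes cofilin, a protein that severs actin filaments. Rpl9-ps7, at chr2:70458982-70459560 on the plus strand, is the closest copy, with 3 substitutions in 579 bases (A51C, C203T and C404T) against Rpl9, a protein of the large ribosomal subunit.

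Gm13340 and Gm13341 are neighbours on chromosome 2, at chr2:22588103-22589647 and chr2:22587291-22587962, both on the minus strand and 141 bases apart in an intron of Myo3a. They are nuclear copies of mt-Co1 and mt-Co2, the mitochondrial genes of cytochrome c oxidase subunits 1 and 2. Gm13340 keeps 97.61% of mt-Co1 over 1545 bases with 37 substitutions and no gap. Gm13341 keeps 95.91% of mt-Co2, with 16 substitutions and a gap of 12 bases, which is the run of capitals in the mt-Co2 line above. Pisd-ps1 (chr11:3125904-3131004, plus strand) and Pisd-ps2 (chr17:3076578-3084183, minus strand) are transcribed copies of 7 exons each, 94.15% and 93.93% identical to Pisd. Pisd is the mitochondrial phosphatidylserine decarboxylase that makes phosphatidylethanolamine, a major membrane lipid. Their differences from it include 53 substitutions and 13 gap bases in Pisd-ps1, and 40 substitutions and 25 gap bases in Pisd-ps2.

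How much of a copy is its own bears on each count. Of all windows of 50 bases, the share found in no other annotated transcript was 84.5% in Pisd-ps1, 77.7% in Pisd-ps2, 74.5% in Tdpx-ps1, 70.0% in Gm13340, 64.0% in Gm13341, 58.4% in Gm6180 and 57.5% in Gm15610. It was 19.1% in Rpl9-ps7, so most reads from that copy could also come from Rpl9 or another copy. The strand setting of the counting is not given in the sources used here, so reads of a pseudogene and of an intron of the gene on the other strand cannot be told apart. The host genes Cntnap5b and Crot were measured at 9.03 to 22.9 and 29 to 45.1 CPM over the 38 mice and passed the threshold in none of the 8 comparisons (edgeR), and Myo3a averaged 0.0267 CPM.

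**Figure D1:**
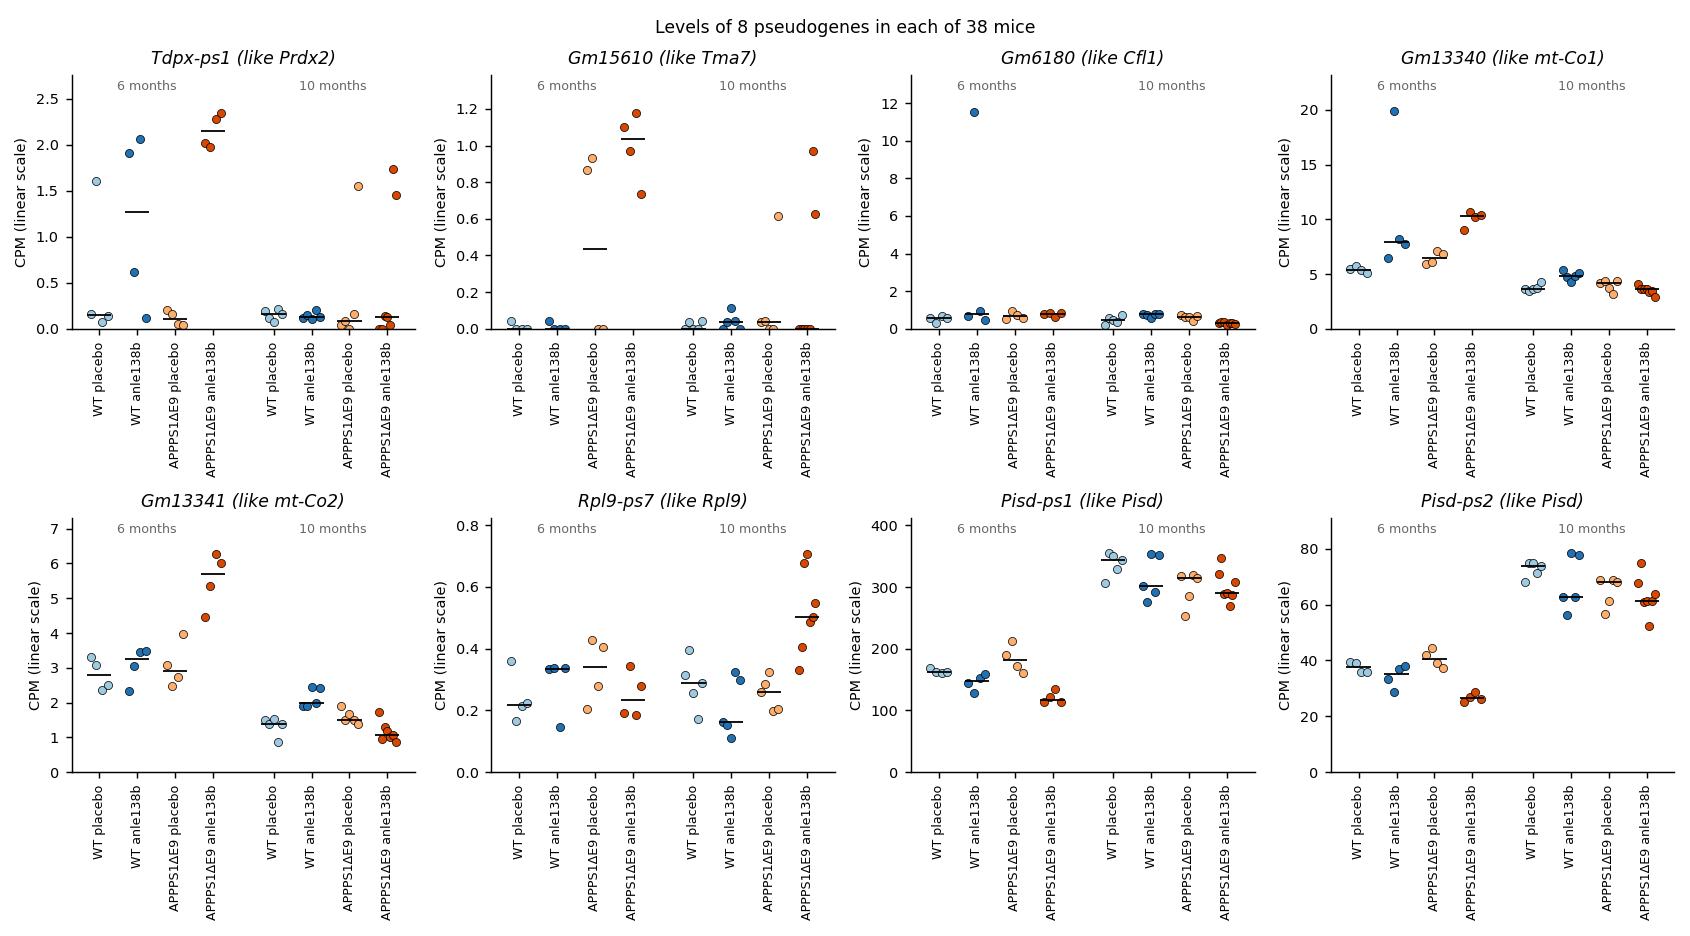
Level of each of the 8 pseudogenes in CPM on a linear scale, with the gene it resembles in brackets. Each point is 1 of 38 mice, arranged by age, genotype and chow, and the line is the median of the group. Tdpx-ps1 and Gm15610 lie either near 0 or well above it, Gm6180 and Gm13340 each have 1 anle138b-treated WT mouse at 6 months far above the rest, and Pisd-ps1 and Pisd-ps2 are higher in the 10-month mice.

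The members spanned a wide range of levels. Levels were also taken per kilobase of an annotated transcript, with all reads of a gene's exons counted. The median over the 38 mice was then 252 CPM for Pisd-ps1 and 50 for Pisd-ps2, against 25.4 for Pisd. On this scale both copies were above their parent. Before scaling by length, Pisd-ps2 had a median of 58.8 CPM against 63.3 CPM for Pisd, so its place depends on the transcript length used. Per kilobase, the other copies except Gm13341 were far below their parents. On the same scale Tdpx-ps1 had 0.26 against 97 for Prdx2, Gm6180 had 1.2 against 401 for Cfl1, Gm13340 had 3.07 against 7188 for mt-Co1 and Rpl9-ps7 had 0.508 against 7.36 for Rpl9. Gm15610 had a median of 0 against 14.8 for Tma7, and Gm13341 had 2.9, while its parent mt-Co2 was at 0 counts in 36 of the 38 mice and never above 1 count. Another 5 of the 13 mitochondrial messages, mt-Co3, mt-Atp6, mt-Atp8, mt-Nd3 and mt-Nd4l, had at most 2 counts in any mouse. No comparison of Gm13341 with its parent is therefore possible.

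Tdpx-ps1 showed steps. In the placebo-treated WT mice at 6 months it was at 0.16, 1.61, 0.0718 and 0.134 CPM, and in the anle138b-treated WT mice at 1.91, 0.619, 2.06 and 0.113 CPM. In placebo-treated APPPS1ΔE9 mice it was at 0.206, 0.156, 0.0557 and 0.0449 CPM, and in anle138b-treated APPPS1ΔE9 mice at 2.02, 1.98, 2.28 and 2.35 CPM. The APPPS1ΔE9 groups did not overlap, 2.16 ± 0.186 against 0.116 ± 0.0783 CPM (mean ± SD, n = 4 and 4, log2 fold change 4.09 ± 0.32, SE), and this is the difference that put Tdpx-ps1 on the list. High values also occurred in both WT groups, on placebo and on anle138b.

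The 10-month mice had the same low and high levels of Tdpx-ps1 in other proportions. The 5 placebo-treated WT mice were at 0.0733 to 0.215 CPM (median 0.166) and the 5 anle138b-treated WT mice at 0.111 to 0.203 CPM (median 0.128), with no high value. The placebo-treated APPPS1ΔE9 mice were at 0.0372, 0.0816, 0, 0.159 and 1.55 CPM. Among the 7 anle138b-treated APPPS1ΔE9 mice the lowest was 0, the median 0.132 and the highest 1.74 CPM, and the next highest was 1.45 CPM. The low levels rest on few reads, since the counts of Tdpx-ps1 ran from 0 to 67, and 3 counts correspond to 0.0941 to 0.189 CPM in these libraries (counting error only).

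Prdx2 did not show such steps in proportion to its own level. In the mice of the 6-month groups, in the same order as above, it was at 156, 170, 160 and 162 CPM on placebo and 160, 150, 160 and 168 CPM on anle138b in WT, and at 151, 135, 151 and 158 CPM on placebo and 162, 162, 157 and 157 CPM on anle138b in APPPS1ΔE9. At 10 months it was between 115 and 152 CPM. The SD within the 6-month groups was 3.16 to 9.5 CPM, more than the highest level of Tdpx-ps1, 2.35 CPM. A shift of that size could not be seen in Prdx2. Its log2 fold change between the APPPS1ΔE9 groups at 6 months was 0.09 ± 0.05 (SE, adjusted p = 0.46, edgeR quasi-likelihood test), and it passed the threshold in none of the 8 comparisons. Of the 6 peroxiredoxin genes, all tested in each comparison, none passed either (edgeR), while the 6 genes had 7 unadjusted p-values under 0.05 over the 8 comparisons and DESeq2 called 0.

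The genes whose log2 CPM followed Tdpx-ps1 most closely over the 38 mice were Zswim4 (Pearson r 0.8), Trappc2l (0.72) and Coq9 (0.71), against 0.4 for Prdx2. All 3 are on chromosome 8, as is Prdx2, while Tdpx-ps1 is annotated on chromosome 1. These r values are descriptions, since the mice fall into separate clusters and share cohorts and lanes. Zswim4, in the mouse order used above, was at 25.6, 44.5, 23.8 and 20.2 CPM and at 45.7, 20.2, 43.8 and 23.1 CPM in the WT groups at 6 months, and at 24.9, 26.7, 23.2 and 22.1 CPM and at 51.5, 48.4, 45.5 and 43.6 CPM in the APPPS1ΔE9 groups. The mice with Tdpx-ps1 above 1 CPM were those with Zswim4 above 40 CPM, and the anle138b-treated WT mouse at 0.619 CPM had Zswim4 at 20.2 CPM. In the placebo-treated APPPS1ΔE9 mice at 10 months, Zswim4 was at 22.2, 23.4, 25.5, 31.1 and 52.7 CPM, again highest in the mouse with Tdpx-ps1 at 1.55 CPM.

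Gm15610 was nearly absent from WT mice. The placebo-treated WT mice at 6 months were at 0.04, 0, 0 and 0 CPM and the anle138b-treated WT mice at 0.0416, 0, 0 and 0 CPM, where each value above 0 is a single read. The placebo-treated APPPS1ΔE9 mice were at 0.866, 0.934, 0 and 0 CPM (21, 24, 0 and 0 reads), and the anle138b-treated APPPS1ΔE9 mice at 1.1, 0.972, 1.18 and 0.736 CPM (29, 31, 32 and 21 reads). On anle138b, the genotypes did not overlap, with 113 reads in APPPS1ΔE9 and 1 read in WT libraries. This difference put Gm15610 on the list. The 2 placebo-treated APPPS1ΔE9 mice at 0 lie below the reach of 3 counts and within the WT values.

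At 10 months most mice of all groups were at or near 0. The placebo-treated WT mice were at 0, 0.0396, 0, 0 and 0.0415 CPM and the anle138b-treated WT mice at 0, 0.0385, 0.111, 0.0405 and 0 CPM. The placebo-treated APPPS1ΔE9 mice were at 0.0372, 0.0408, 0, 0 and 0.613 CPM. In the anle138b-treated APPPS1ΔE9 mice, 5 of 7 were at 0 and the others at 0.971 and 0.628 CPM. Over the series 20 of 38 mice had no read of Gm15610, and values of 0.613 CPM and above occurred in APPPS1ΔE9 mice at both ages and on both chows. The mouse at 0.613 CPM was also the one with Tdpx-ps1 at 1.55 CPM, and the mice at 0.971 and 0.628 CPM had Tdpx-ps1 at 1.74 and 1.45 CPM.

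Tma7, the parent of Gm15610, was the only parent gene that passed the threshold in any comparison. It fell in anle138b-treated APPPS1ΔE9 mice at 6 months to 10.6 ± 0.228 CPM, against 16.5 ± 0.641 CPM in anle138b-treated WT mice (mean ± SD, n = 4 and 4, log2 fold change -0.64 ± 0.07, SE, adjusted p = 0.002, edgeR quasi-likelihood test over 17033 genes). Single mice were at 10.9, 10.4, 10.3 and 10.6 CPM against 15.6, 16.4, 17.2 and 16.8 CPM, with no overlap. In the placebo-treated mice of the same age it was at 11, 9.89, 13.4 and 15.5 CPM in APPPS1ΔE9 and at 17.1, 15.8, 16.1 and 16.8 CPM in WT mice, a log2 difference of -0.39 ± 0.12 that did not pass (adjusted p = 0.36, edgeR). The difference between these genotype effects was not past the threshold (log2 difference -0.24 ± 0.14, adjusted p = 0.65, edgeR), nor was that between the ages on anle138b (0.49 ± 0.15, adjusted p = 0.66). The call of Tma7 lies in the comparison that put Gm15610 on the list. Of the 146 windows of 50 bases in Gm15610, 59 also occur in Tma7, so reads can be shared. The test of Tma7 is thus not independent of that choice, and the part of shared reads was not tested.

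Mouse by mouse, Tma7 was lower where Gm15610 was higher within each of the APPPS1ΔE9 groups that held both low and high values. In the placebo-treated APPPS1ΔE9 mice at 6 months, the mice with Gm15610 at 0.866 and 0.934 CPM had Tma7 at 11 and 9.89 CPM, and those at 0 had 13.4 and 15.5 CPM. In the placebo-treated APPPS1ΔE9 mice at 10 months Tma7 was at 14.9, 15.6, 15.8, 12.6 and 10.4 CPM, lowest in the mouse with Gm15610 at 0.613 CPM. In the anle138b-treated ones it was at 14.6, 13.9, 13.9, 13.3, 13.9, 11.3 and 8.98 CPM, lowest in the mice with Gm15610 at 0.971 and 0.628 CPM. In the 10-month WT mice, with at most 3 reads of Gm15610, Tma7 ran from 12.1 to 16.8 CPM. The Pearson r of their log2 CPM was -0.81 over 38 mice, -0.96 over the 16 mice at 6 months and -0.69 over the 22 at 10 months, as a description of mice that fall into clusters. The genes most like Gm15610 in the other direction were Col6a5 (r 0.67), Zswim4 (0.64) and Col6a6 (0.61), and Col6a5 and Col6a6 are on chromosome 9, as is Tma7.

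**Figure D2:**
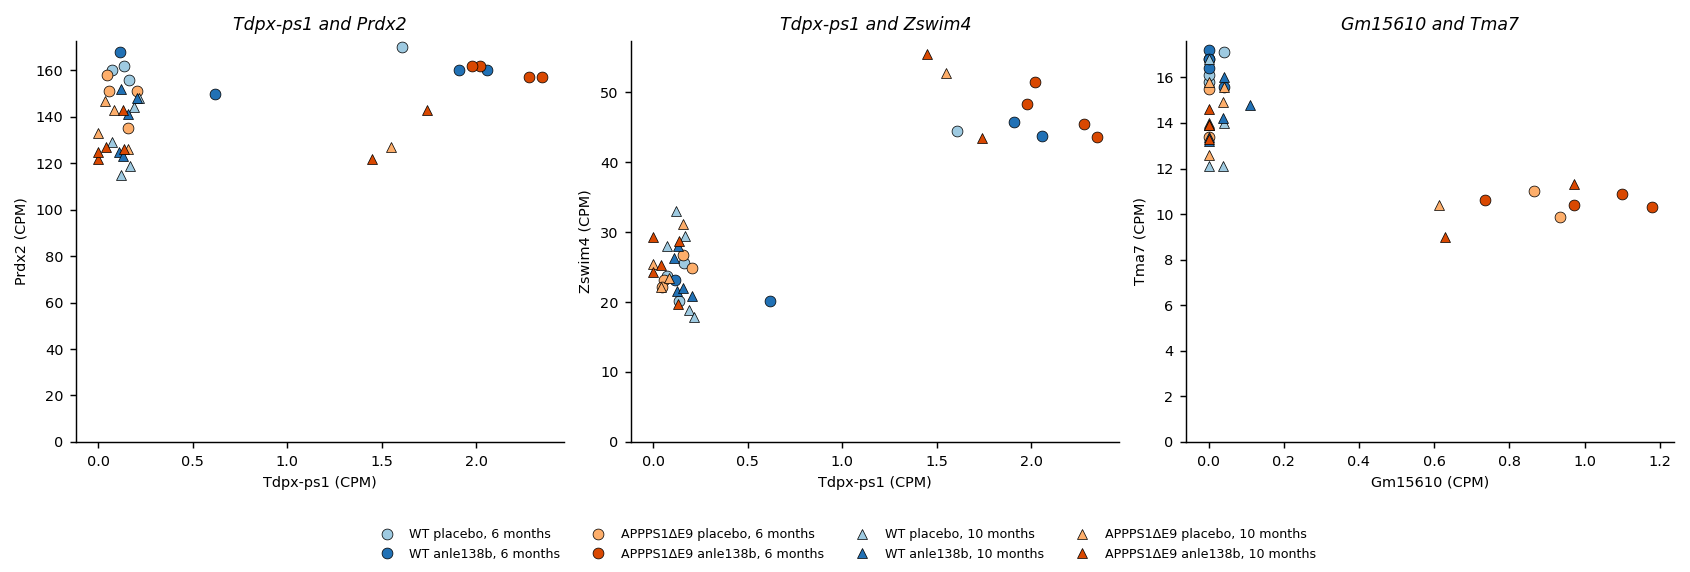
Tdpx-ps1 against its parent Prdx2 and against Zswim4, and Gm15610 against its parent Tma7, in CPM on linear scales. Each point is 1 mouse, circles are 6 months and triangles 10 months, and colours give genotype and chow. Prdx2 at 10 months lies between 115 and 152 CPM at low and high Tdpx-ps1 alike, Zswim4 is above 40 CPM where Tdpx-ps1 is above 1 CPM, and Tma7 is at most 11.3 CPM where Gm15610 is above 0.6 CPM. The highest Tdpx-ps1 level, 2.35 CPM, is small beside the spread of Prdx2, where a shift of that size could not be seen.

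Gm6180 was low in all mice but 1. At 6 months it was at 0.561, 0.33, 0.682 and 0.581 CPM on placebo and 0.666, 11.5, 0.934 and 0.45 CPM on anle138b in WT mice, and at 0.495, 0.934, 0.725 and 0.584 CPM on placebo and 0.762, 0.815, 0.626 and 0.841 CPM on anle138b in APPPS1ΔE9 mice. The value of 11.5 CPM rests on 205 reads of a single anle138b-treated WT mouse, replicate 2. With it the log2 fold change of anle138b against placebo in WT mice was 2.61, and without it 0.31 ± 0.34 (SE). In the genotype comparison on anle138b the value moved from -2.12 to 0.19 ± 0.29.

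The comparison that put Gm6180 on the list was that of the genotypes on anle138b at 10 months. The anle138b-treated WT mice were at 0.774, 0.732, 0.556, 0.77 and 0.808 CPM, and the 7 anle138b-treated APPPS1ΔE9 mice at 0.221 to 0.361 CPM (median 0.301), with no overlap. The means were 0.299 ± 0.0555 and 0.728 ± 0.0999 CPM (SD, n = 7 and 5, log2 fold change -1.26 ± 0.18, SE), from 5 to 19 reads per mouse. The placebo-treated WT mice of that age overlapped with both of these groups, and the placebo-treated APPPS1ΔE9 mice only with the anle138b-treated WT mice, at 0.743, 0.612, 0.648, 0.396 and 0.653 CPM in APPPS1ΔE9 and 0.189, 0.554, 0.44, 0.344 and 0.746 CPM in WT mice. The anle138b-treated APPPS1ΔE9 mouse in lane 5, the lane of all placebo-treated APPPS1ΔE9 mice of that age, was at 0.289 CPM, within the range of the 6 mice of lane 6. The 1 placebo-treated WT mouse in lane 4, the lane of all anle138b-treated WT mice of that age, was at 0.746 CPM. This lay within the range of those anle138b-treated mice, while the placebo-treated WT mice of lane 3 were all lower, at 0.189 to 0.554 CPM. The part of lane was not tested. Cfl1 was between 401 and 523 CPM in all mice, with a log2 fold change of -0.04 ± 0.05 in this comparison (adjusted p = 0.86, edgeR). Gm6180 was at most 0.808 CPM at that age, so a shift of its size could not be seen in Cfl1.

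The same replicate 2 stood apart in other genes too. Gm9522, Vcp-rs and Eif6 were the genes most like Gm6180 (r 0.86, 0.85 and 0.84 over 38 mice), and without this mouse the r fell to 0.55, 0.55 and 0.57 over 37 mice. In it Gm9522 was at 18.3 CPM, against at most 1.93 CPM in any other mouse. Over all genes, 387 of 15028 lay more than 1 log2 unit from the median of its group, against 90 to 236 in the other 3 mice. This was the most among the 6-month mice, where the next had 371, while a 10-month mouse reached 722. Its library also had the most genes with a count of the 38 mice, 25420, at a total count of only 17764531. Of the copies of Rpl9 outside the list, Rpl9-ps9 was at 0 in 35 of 38 mice and had its highest value, 10.6 CPM, in this group of anle138b-treated WT mice (2.65 ± 5.29 CPM, SD, n = 4).

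The 2 nuclear copies of mitochondrial genes had their highest group medians in anle138b-treated APPPS1ΔE9 mice at 6 months, and the lowest medians of both were at 10 months. Gm13340 was at 9.06, 10.7, 10.2 and 10.4 CPM in these mice and at 5.9, 6.11, 7.08 and 6.83 CPM in placebo-treated APPPS1ΔE9 mice, with no overlap (10.1 ± 0.714 and 6.48 ± 0.566 CPM, n = 4 and 4, log2 fold change 0.63 ± 0.10, SE). The WT mice of that age were at 5.45, 5.73, 5.38 and 5.14 CPM on placebo and at 6.45, 19.9, 8.16 and 7.73 CPM on anle138b. The 19.9 CPM again belongs to replicate 2, and without it the log2 fold change of anle138b against placebo in WT mice went from 0.96 to 0.46 ± 0.12 and the genotype difference on anle138b from -0.05 to 0.44 ± 0.11. In Gm13341 the same mouse did not stand out.

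Gm13341 was at 4.46, 5.36, 6.26 and 6.02 CPM in anle138b-treated APPPS1ΔE9 mice at 6 months. The placebo-treated ones were at 3.09, 2.49, 2.73 and 3.96 CPM, and the WT mice at 3.32, 3.09, 2.37 and 2.5 CPM on placebo and 2.33, 3.04, 3.44 and 3.49 CPM on anle138b. The highest group thus overlapped with none of the other 3. Its log2 fold change of 0.84 ± 0.16 against placebo lies outside the threshold of the list, and Gm13341 entered the list through the 10-month mice.

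At 10 months both copies were lower in anle138b-treated APPPS1ΔE9 than in anle138b-treated WT mice. At 6 months Gm13341 was higher in APPPS1ΔE9 mice (log2 fold change 0.85 ± 0.16), while the sign for Gm13340 depended on replicate 2, as given above. In the 10-month mice Gm13341 was at 1.91, 1.89, 2.44, 1.99 and 2.42 CPM in anle138b-treated WT mice and at 0.863 to 1.73 CPM (median 1.07) in the 7 anle138b-treated APPPS1ΔE9 mice, with no overlap (log2 fold change -0.87 ± 0.17, SE). Gm13340 was at 5.37, 4.7, 4.26, 4.78 and 5.1 CPM and at 2.94 to 4.09 CPM (median 3.6), again with no overlap (-0.45 ± 0.10). On placebo the groups overlapped in both genes. Gm13341 was at 1.51, 1.39, 1.54, 0.86 and 1.37 CPM in WT and 1.9, 1.51, 1.67, 1.51 and 1.39 CPM in APPPS1ΔE9 mice, and Gm13340 at 3.66, 3.44, 3.59, 3.74 and 4.27 CPM and 4.16, 4.41, 3.7, 3.21 and 4.33 CPM. The 1 anle138b-treated APPPS1ΔE9 mouse in lane 5 was the highest of its group in both, at 1.73 and 4.09 CPM, and lay within the range of the placebo-treated APPPS1ΔE9 mice of that lane. The other 6, in lane 6, were at 0.863 to 1.31 and 2.94 to 3.62 CPM. The 1 placebo-treated WT mouse in lane 4, the lane of the anle138b-treated WT mice, was at 1.37 CPM of Gm13341 and 4.27 CPM of Gm13340. Those of lane 3 were at 0.86 to 1.54 and 3.44 to 3.74 CPM. In Gm13340, but not in Gm13341, the lane 4 mouse thus lay within the range of the anle138b-treated WT mice. The part of lane was not tested.

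No mitochondrial message passed the threshold beside these copies. mt-Co1, the parent of Gm13340, was between 9739 and 13921 CPM in the 38 mice. Gm13340 was at most 19.9 CPM, so a shift of its size could not be seen in mt-Co1. In the placebo-treated mice at 6 months it was at 10930, 9739, 11184 and 11556 CPM in APPPS1ΔE9 and at 12700, 13909, 12407 and 12820 CPM in WT, groups that did not overlap but did not pass the threshold (log2 fold change -0.25 ± 0.08, adjusted p = 0.36, edgeR). Gm13340 was on the other side in that comparison, at 0.26 ± 0.11 log2. For anle138b against placebo in APPPS1ΔE9 mice mt-Co1 had 0.20 ± 0.10 (adjusted p = 0.4, edgeR). Of the 13 mitochondrial messages, 7 could be tested. None passed in any comparison (edgeR), with 10 unadjusted p-values under 0.05 over the 8 comparisons and 4 calls by DESeq2. Their median log2 fold change was -0.22 in placebo-treated APPPS1ΔE9 against WT mice at 6 months and 0.22 for anle138b against placebo in APPPS1ΔE9 mice of that age, with 7 of 7 on the same side each time. These comparisons share the placebo-treated APPPS1ΔE9 mice, and the median over all genes was 0.002 and -0.002.

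Over the 38 mice the log2 CPM of Gm13340 and Gm13341 had a Pearson r of 0.84, and of 0.93 without replicate 2 of the anle138b-treated WT mice. The r was 0.52 at 6 and 0.71 at 10 months, so part of the pooled value lies between the cohorts. The genes most like Gm13340 were Psma6 (0.87), a proteasome subunit, Polr2b (0.86), a subunit of RNA polymerase II, and Psmb6 (0.86), another proteasome subunit. At 10 months these r were 0.56, 0.34 and 0.27. Those most like Gm13341 were Selenok, Pole4 and Mrm2 (0.82 each), against 0.3 to 0.59 at 6 months and 0.33 to 0.49 at 10 months.

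Pisd-ps1 and Pisd-ps2 were the abundant members and followed Pisd. At 6 months Pisd-ps1 was at 169, 163, 161 and 162 CPM on placebo and 144, 129, 152 and 159 CPM on anle138b in WT mice, and at 190, 212, 172 and 161 CPM on placebo and 113, 121, 135 and 114 CPM on anle138b in APPPS1ΔE9 mice. The APPPS1ΔE9 groups did not overlap (121 ± 10.1 against 184 ± 22.5 CPM, n = 4 and 4, log2 fold change -0.61 ± 0.09, SE). Pisd-ps2 was at 39.4, 39.2, 35.7 and 35.8 CPM and at 33.5, 28.6, 36.8 and 38 CPM in the WT groups, and at 42.1, 44.3, 39.1 and 37.3 CPM and at 25.2, 26.9, 28.8 and 26.3 CPM in the APPPS1ΔE9 groups. The last 2 again did not overlap, with the same log2 fold change of -0.61 ± 0.07.

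Pisd itself was at 50.2, 56.4, 47.6 and 48.4 CPM on placebo and at 41.1, 43, 44.3 and 40.6 CPM on anle138b in the APPPS1ΔE9 mice at 6 months. These groups did not overlap either, but the log2 fold change of -0.27 ± 0.06 did not pass the threshold (adjusted p = 0.25, edgeR). In DESeq2, without the filter on low counts, and with Y-linked expression as a covariate, Pisd did pass. In the WT groups Pisd was at 49.1, 50.5, 48 and 49.8 CPM and at 48.3, 39.7, 48.5 and 50.7 CPM. The difference of the anle138b effect in APPPS1ΔE9 mice between the ages was 0.31 ± 0.11 log2 for Pisd and not past the threshold (adjusted p = 0.61, edgeR). Of 9 genes of phosphatidylethanolamine and phosphatidylserine synthesis, all tested, none passed in any comparison (edgeR), with 2 unadjusted p-values under 0.05 over the 8 comparisons and 1 call by DESeq2.

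Both copies were higher in the 10-month mice, a difference with no test because the ages are separate cohorts. Pisd-ps1 ran from 253 to 356 CPM at 10 months and from 113 to 212 CPM at 6 months. At 10 months it was at 307, 356, 351, 329 and 344 CPM on placebo and 301, 276, 354, 292 and 352 CPM on anle138b in WT mice, and at 318, 253, 285, 319 and 315 CPM on placebo and 269 to 347 CPM (median 290) on anle138b in APPPS1ΔE9 mice. All 4 groups overlapped. Pisd-ps2 had medians of 73.7, 62.8, 68.1 and 61.4 CPM and Pisd of 75.1, 64.9, 68.4 and 70.2 CPM in these groups, in the same order. Anle138b against placebo in APPPS1ΔE9 mice had log2 fold changes of 0.03 ± 0.07 for Pisd-ps1, -0.03 ± 0.08 for Pisd-ps2 and 0.03 ± 0.08 for Pisd at that age.

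Pisd was the gene most like each of its copies among all genes of at least 1 CPM on average. The Pearson r of log2 CPM was 0.97 for both over 38 mice, and within the ages it was 0.91 and 0.9 for Pisd-ps1 and 0.91 and 0.82 for Pisd-ps2. The copies had an r of 0.99 with each other. These mice share cohort and lane, and the 3 genes can share reads. Srrm2 and Ubp1 also reached 0.97 with Pisd-ps1 over all mice, but 0.74 and 0.76 at 6 months. Pisd-ps1 and Gm13340 had an r of -0.86 over all mice, -0.71 at 6 months and -0.05 at 10 months.

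**Figure D3:**
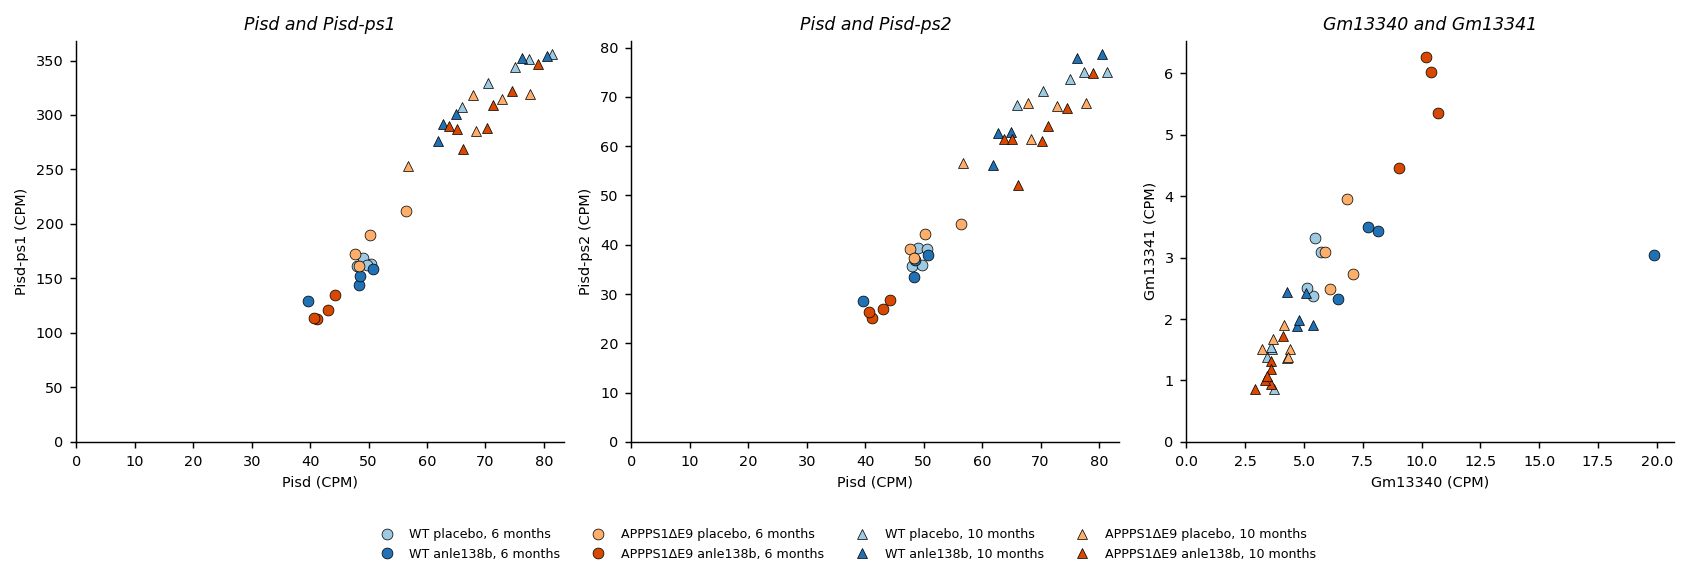
Pisd-ps1 and Pisd-ps2 against Pisd, and Gm13341 against Gm13340, in CPM on linear axes that start at 0. Each point is 1 mouse, with circles at 6 and triangles at 10 months. Both Pisd copies lie higher where Pisd is higher, within and between ages, and the anle138b-treated APPPS1ΔE9 mice at 6 months lie at the low end for Pisd and at the high end for the mitochondrial copies, where replicate 2 of the anle138b-treated WT mice stands alone at 19.9 CPM of Gm13340.

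Rpl9-ps7 was counted in every mouse but rested on only 3 to 16 reads. In the 7 anle138b-treated APPPS1ΔE9 mice at 10 months it was at 0.33 to 0.706 CPM (median 0.502), and in the anle138b-treated WT mice at 0.163, 0.154, 0.111, 0.324 and 0.298 CPM. The groups did not overlap (0.522 ± 0.136 against 0.21 ± 0.0946 CPM, n = 7 and 5, log2 fold change 1.31 ± 0.30, SE), but the gap between 0.33 and 0.324 CPM is less than the worth of 1 read. The 0.33 CPM belongs to the mouse in lane 5. The placebo-treated mice were at 0.26, 0.286, 0.324, 0.198 and 0.204 CPM in APPPS1ΔE9 and 0.315, 0.396, 0.257, 0.172 and 0.29 CPM in WT, and all 16 mice at 6 months at 0.147 to 0.428 CPM. Rpl9 was between 4.24 and 7.16 CPM, with a log2 fold change of 0.02 ± 0.11 in the same comparison (adjusted p = 0.97, edgeR).

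Other copies of Rpl9 could not be compared, as none of the 8 passed the filter on low counts. Of the 50 listed proteins of the large ribosomal subunit, 46 were tested and 1 passed in any comparison (edgeR). This was Rpl29, which fell in anle138b-treated APPPS1ΔE9 against WT mice at 6 months (log2 fold change -0.93 ± 0.11, adjusted p = 0.0087, edgeR). The genes most like Rpl9-ps7 were Rab3d (r 0.61), Fcgr1 (0.61) and Rasal3 (0.58), against 0.14 for Rpl9.

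The calls that chose the members were unevenly spread. Of the 8 comparisons, 3 held any, and the other 5 had none (edgeR), with 11 unadjusted p-values under 0.05 among the members and 0 calls by DESeq2. In those at 6 months DESeq2 gave some members no adjusted p and so could not call them. For anle138b against placebo in APPPS1ΔE9 mice at 6 months, 4 of the 7 members tested were past the threshold (Tdpx-ps1, Gm13340, Pisd-ps1 and Pisd-ps2), where 0.0529% of 17009 genes were. In the genotype comparison on anle138b it was 1 of 7 at 6 months (Gm15610), with 0.047% of 17033 genes, and 4 of 6 at 10 months (Gm6180, Gm13340, Gm13341 and Rpl9-ps7), with 0.723% of 17151 genes. These shares follow from the choice and carry no further weight. Members passed the filter on low counts in 2 (Gm15610 and Rpl9-ps7) to 8 of the 8 comparisons. In the comparisons that chose them, Gm15610, Tdpx-ps1, Rpl9-ps7 and Gm6180 passed it only through the group in which they were high. For Gm15610 and Tdpx-ps1 at 6 months and Rpl9-ps7 at 10 months this group was the anle138b-treated APPPS1ΔE9 mice. For Gm6180 it was the anle138b-treated WT mice at 10 months. The comparisons share groups of mice, so their values are not independent.

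The edge of the list lay as follows. The member just inside was Rpl9-ps7 at 10 months, with an adjusted p of 0.096 (edgeR), and Gm13340 in the same comparison had 0.08. Just outside were Gm11868, another processed pseudogene, with 0.12 (1.4 against 0.072 CPM in anle138b-treated APPPS1ΔE9 and WT mice at 10 months), and Gm13341 at 6 months with 0.2. Among pseudogenes that are no members, those past the threshold in any comparison were Lamr1-ps1 and Clec7a, which has the biotype of a polymorphic pseudogene. Of 279 to 362 other pseudogenes tested per comparison, a list that leaves out polymorphic pseudogenes and so Clec7a, at most 1, Lamr1-ps1, passed each time, with 126 unadjusted p-values under 0.05 over the 8 comparisons and 6 calls by DESeq2.

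**Figure D4:**
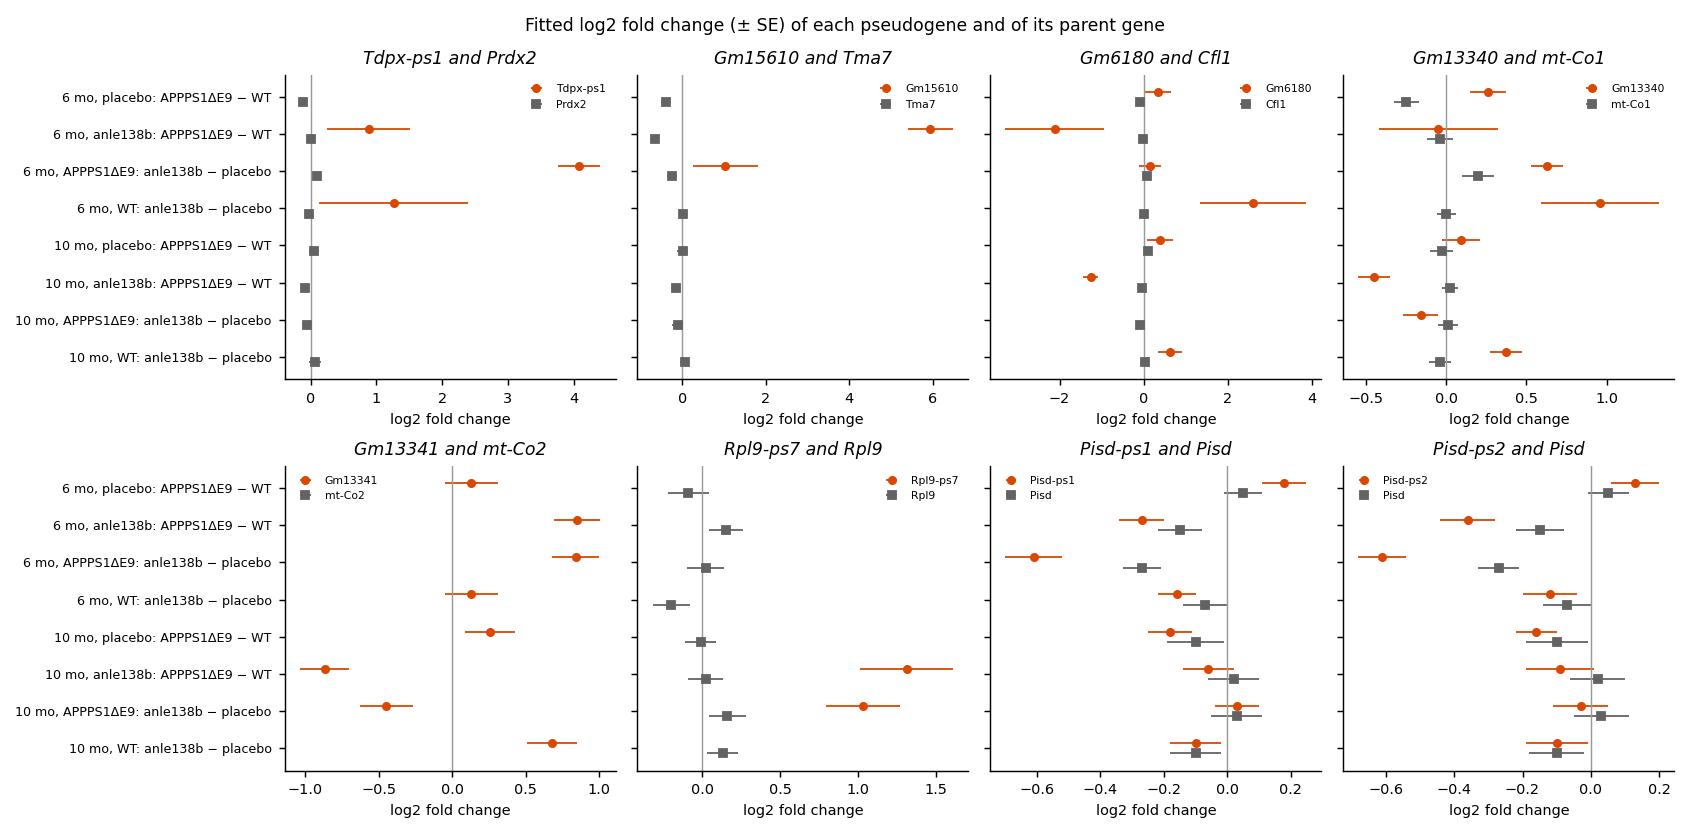
Fitted log2 fold change (points) with its standard error (lines) of each pseudogene and its parent gene in the 8 comparisons, where a missing point means that the gene did not pass the filter on low counts. mt-Co2 was never tested, the fitted value of Gm15610 at 6 months on anle138b depends on the prior count because the WT mice had 1 read, and of the parents only Tma7 at that comparison (-0.64) passed the threshold.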

How the data were processed

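RNA was measured in the hippocampus of 38 mice. According to the study's methods and the labels, the authors prepared TruSeq libraries, aligned the reads to mm10 by STAR and obtained gene counts by HTSeq (intersection-nonempty). The deposited values are raw read counts of 48709 genes per mouse, not normalized. The annotation release, read length and strand setting are not given in the sources used here.

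Groups came from the sample titles, and replicates were separate mice. Among 75 pairs of mice within a group, the chi-square per degree of freedom ran from 2.99 to 59.6, so no pair differed by less than sampling noise. After filterByExpr (minimum total count 15, minimum count 10) and TMM scaling, edgeR's quasi-likelihood test was run in each of 8 comparisons, with Benjamini-Hochberg adjustment over all genes tested and a threshold of 0.1. The standard error (SE) is the size of the log2 fold change over the root of the F statistic. Total counts of 15847985 to 31895808 set the precision, and limits set by a count of 0 cover counting error only.

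The members and gene lists were chosen with earlier results of these data known. Genes named are the members, their parents, the 3 genes most like each member (Pearson r of log2 CPM with a prior count of 2, over genes of at least 1 CPM on average), host genes, other copies and listed genes past the threshold. The lists were peroxiredoxins, mitochondrial messages, lipid synthesis, large-subunit ribosomal proteins, other pseudogenes and markers of hippocampal neurons, choroid plexus, thalamus and pituitary. Parents are the best blastn match (2.17.0) outside pseudogenes among GENCODE M21 transcripts of GRCm38, which hold 48349 of the genes and from which all sequences were read; no genome sequence was used. Python 3.11.15, edgeR 4.0.16 under R 4.3.3, and DESeq2 1.42.0 were used. The fits were tested on simulated data. Alternatives were DESeq2, RLE size factors, no filter, a threshold of 0.05, a single fit of 4 groups, a Y-linked covariate, a replicate block and each mouse left out (76 fits). The replicate number is a running number within a group, and the mice have numbers of their own.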

Additional observations from a re-analysis of the deposited data

Results flagged for a closer look

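In groups of 4 to 7 mice, 11 of 114 combinations of gene and group had 1 mouse far from the others. The rule used flags about 1 in 20 for normally distributed values. That rate does not apply where a single read stands beside mice at 0, and the combinations share mice. The count was therefore not set against chance. For Tdpx-ps1, the highest mice stood apart in placebo-treated WT at 6 months (replicate 2, 1.61 CPM) and in placebo-treated APPPS1ΔE9 at 10 months (replicate 5, 1.55 CPM). That replicate 5 also stood apart in Gm15610, at 0.613 CPM. For Gm15610, replicate 1 of placebo-treated WT (0.04 CPM) and replicate 1 of anle138b-treated WT (0.0416 CPM) at 6 months were set apart by a single read each. Replicate 2 of anle138b-treated WT mice at 6 months was far above its group in Gm6180 (11.5 CPM) and Gm13340 (19.9 CPM). Lowest values far from the rest were found in Gm13341 for placebo-treated WT at 10 months (replicate 4, 0.86 CPM) and in Rpl9-ps7 for anle138b-treated WT at 6 months (replicate 3, 0.147 CPM). For mt-Co2, single reads set apart replicate 3 of anle138b-treated WT (0.037 CPM) and replicate 2 of anle138b-treated APPPS1ΔE9 mice (0.045 CPM) at 10 months.

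Gm13341 differed between the genotypes on anle138b in opposite directions at the ages, with a log2 fold change of 0.85 at 6 months and -0.87 at 10 months and no overlap of the groups at either age. The difference between the ages was not tested, since the gene was chosen for its 10-month value.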

How the results depend on the processing

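The fold changes behind the members' calls and that of Tma7 kept their direction under every alternative run, while counts of calls changed. The members were chosen by these fold changes, and in each of these comparisons, that of Tma7 included, the groups did not overlap. Kept directions, and kept calls of members, are therefore a description and add no support. Outside the calls, leaving out replicate 2 of anle138b-treated WT mice turned the genotype difference on anle138b at 6 months from -2.12 to 0.19 for Gm6180 and from -0.05 to 0.44 for Gm13340. In the genotype comparison on anle138b at 6 months, 1 member passed, against 3 with DESeq2 (Gm15610, Gm13341 and Pisd-ps2), 0 in the fit of all 4 groups (Gm15610 had adjusted p = 0.19) and 1 to 2 when a mouse was left out, the 2 without replicate 2 of anle138b-treated WT mice. For anle138b against placebo in APPPS1ΔE9 mice at 6 months, 4 members passed, against 2 in the fit of all 4 groups (Pisd-ps1 and Pisd-ps2, while Tdpx-ps1 had 4.1 with adjusted p = 0.2) and 2 to 5 when a mouse was left out. It was 2 without replicate 2 or 4 of the anle138b-treated or replicate 3 of the placebo-treated mice, with Tdpx-ps1 and Pisd-ps2 kept in these 3 fits. In the genotype comparison on anle138b at 10 months, 4 members passed, against 1 at an adjusted p under 0.05, 2 without the filter and 1 to 4 when a mouse was left out, with Gm6180 kept in 12 of 12. Rpl9-ps7 passed the filter in 7 of these 12 fits.

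Of the parents, Tma7 kept its call in 14 of 14 alternatives (log2 fold change -0.67 to -0.63, adjusted p 7.5e-10 to 0.024). At 6 months mt-Co1 was 1 call of DESeq2 in the placebo-treated mice, and Pisd was 1 call for anle138b against placebo in APPPS1ΔE9 mice with DESeq2, without the filter and with the Y-linked covariate, and 0 to 1 when a mouse was left out (1 without replicate 1 of the placebo-treated mice). The cause was not tested in any of these. DESeq2 gave no adjusted p for Tdpx-ps1, Gm15610 and Gm6180 in the comparison of APPPS1ΔE9 mice at 6 months. At that age it also gave none for Gm13340, Gm13341 and Gm6180 in the genotype comparison on placebo. The same held for Gm6180 in the genotype comparison on anle138b and in the comparison of WT mice.

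The replicate numbers did not pair the mice, as the mean correlation of same-numbered mice ran from -0.35 to 0.44 and in no comparison did every pair exceed 0.1. With the replicate block, 2 members passed in the genotype comparison on anle138b at 6 months (Gm15610 and Gm13341), 3 in APPPS1ΔE9 mice at 6 months and 0 in the genotype comparison at 10 months (Gm6180 -1.21, adjusted p = 0.24). Depth limits Gm15610, Rpl9-ps7 and low Tdpx-ps1 most, where a mouse holds from 0 to a few reads.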

Other observations

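Gm11868, a processed pseudogene outside the list, also had low and high levels. At 6 months it was at 2.4, 1.86, 0.144 and 2.15 CPM on placebo and 2.66, 0.0563, 2.41 and 0.113 CPM on anle138b in WT mice, and at 0.0825, 2.22, 2.17 and 2.7 CPM on placebo and 0.152, 0.157, 0.147 and 0.175 CPM on anle138b in APPPS1ΔE9 mice. At 10 months it was at 0.0407 to 0.128 CPM in anle138b-treated WT mice and at 1.61, 1.67, 2.12, 1.94, 2.31, 0 and 0.157 CPM in anle138b-treated APPPS1ΔE9 mice. In the latter, the mice at 0 and 0.157 CPM were those with Tdpx-ps1 at 1.74 and 1.45 CPM. In the anle138b-treated APPPS1ΔE9 mice at 6 months, which had the highest Tdpx-ps1, none was above 0.175 CPM of Gm11868. Replicates 1 and 3 of anle138b-treated WT and replicate 2 of placebo-treated WT mice of that age were high in both.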
